A study of Danio rerio with 26 samples.

Results

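Of the 25975 nucleosome-free regions that formed the consensus accessibility map of the early zebrafish embryo, 1123 (4.32%) were 600 bp wide or wider, and these wide regions are described here. The regions were chosen by their measured width alone, as all peaks whose end minus start was 600 or more, and the remaining 24852 peaks served as the comparison. The map was built from ATAC-seq of 17 wild-type libraries at 7 stages, taken from cells of deyolked whole embryos. There were 2 libraries at the 256-cell stage, 3 at high, 3 at oblong, 2 at sphere, 3 at dome, 2 at shield and 2 at 80% epiboly. These embryos were labelled wild-type, with no treatment given. Libraries of MZpou5f3, MZsox19b and MZnanog mutants and of α-amanitin-treated embryos, all at oblong, did not enter the map and are not analysed here. The list held positions only, so every value below is a property of 1 merged list, without replicates and without a depth per region.

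ATAC-seq uses the Tn5 transposase to insert sequencing adapters into DNA that is not wrapped around nucleosomes. Short fragments come from stretches between nucleosomes and mark promoters, enhancers and insulators, where transcription factors and the transcription machinery keep histones off the DNA. Around zygotic genome activation, when the embryo begins to transcribe its own genome, maternal factors such as Pou5f3, Sox19b and Nanog are known to open such sites. A wide nucleosome-free peak spans the room of several nucleosomes. Since the authors joined overlapping peaks of the wild-type stages, a wide peak can be a single long open stretch or neighbouring sites that were open at different stages. The list cannot tell these apart. Sequences and genes of the regions are not given, as the genome of this build (Zv10) and its annotation were not used here.

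Wide peaks covered 841 kb, which was 9.41% of the 8.93 Mb covered by the whole map. Their width chose them, so widths are given as a description. The wide peaks had a median width of 692 bp, with quartiles of 636 and 794.5 bp and a mean of 748 ± 198 bp (SD, n = 1123 peaks). The peaks under 600 bp had a median of 312 bp and quartiles of 260 and 378 bp. Most wide peaks were close to the bound, with 848 peaks of 600 to 799 bp, and 192 measured 800 to 999 bp. Another 75 measured 1000 to 1499 bp, and 8 measured 1500 bp or more. There was no step in number at the bound, as 88 peaks were up to 10 bp narrower than 600 bp and 82 lay in the first 10 bp from 600 bp on. The surroundings of these classes are given as a description only, since each holds few peaks. On the assembled chromosomes, the 80 peaks of the class just inside had a median of 3.5 other peaks within 50 kb, a median gap of 4.82 kb to the nearest peak and a median distance of 13.7 Mb to the nearer chromosome end. The 88 peaks of the class just outside had 4 other peaks, a gap of 5.62 kb and an end distance of 10.2 Mb. Here the peaks outside the bound were nearer to the ends and had more neighbours, unlike in the whole set. In classes of 50 bp, the median end distances were 11.9 Mb inside (350 peaks) and 11.0 Mb outside (481 peaks). The mean numbers of neighbours were 4.82 and 4.96, and the median gaps 3.197 and 4.325 kb.

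**Figure D1:**
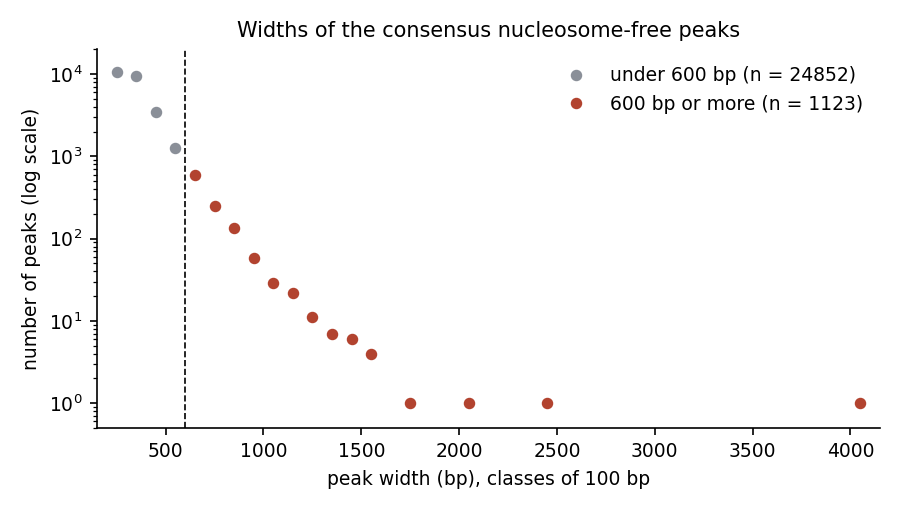
Number of consensus peaks in width classes of 100 bp (points, log scale; classes without a peak are not drawn), with peaks under 600 bp in grey and peaks of 600 bp or more in red, and a dashed line at 600 bp. The number falls from 1270 in the last class under 600 bp to 249 at 700 to 799 bp, and single peaks lie above 1600 bp, up to 4037 bp.

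The widest region of the map lay at chr4:76320117-76324153 (Zv10, 4037 bp). It had a peak-free stretch of 276.7 kb on its left and a peak of 396 bp only 209 bp to its right, and it had 2 other peaks within 50 kb. It lay 0.291 Mb from the last peak of the chromosome. The second widest, chr19:43525683-43528158 (2476 bp), had its nearest neighbour 321 bp away. That neighbour was itself wide (725 bp), and 9 peaks lay within 50 kb. These 2 regions differed in their surroundings, since a long empty stretch bordered only the first.

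Of the 10 widest regions, 4 were on chromosome 7 and 3 of these belonged to a single group. These were chr7:6329867-6331918 (2052 bp), chr7:6292844-6294575 (1732 bp) and chr7:6220808-6222343 (1536 bp), with 18, 20 and 10 other peaks within 50 kb. Of those neighbours, 11, 12 and 4 were also wide. The fourth, chr7:73594502-73596098 (1597 bp), had 25 other peaks within 50 kb, and 10 of them were wide. The remaining 4 regions were on chromosomes 1, 22, 14 and 23. The region at chr1:55160554-55162100 (1547 bp) was framed by gaps of only 17 and 212 bp, and the region at chr23:46013813-46015284 (1472 bp) by gaps of 248 and 412 bp. At chr14:38508886-38510365 (1480 bp), a peak of 531 bp followed at 377 bp on one side, and the next on the other side was 21.8 kb away. The region at chr22:119733-121239 (1507 bp) had wider gaps of 7.70 and 10.9 kb on its sides and lay 75.6 kb from the first peak of its chromosome. Of the 10 widest regions, 8 had a neighbour within 500 bp, and the exceptions were those at chr22:119733-121239 and chr7:6220808-6222343.

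To ask whether wide regions were placed differently from narrower ones, the 1089 wide peaks on the 25 assembled chromosomes were compared with the 24432 narrower peaks there. The gap was measured between the edges of neighbouring peaks. It leaves out the width itself, but with the same midpoint a wider peak reaches nearer to its neighbours. Between midpoints, the median distances were 3.66 kb for wide and 8.24 kb for narrower peaks. By this measure, 56.2% of wide and 39.8% of narrower peaks had a neighbour within 5 kb. Wide peaks lay closer to their nearest neighbour. Their median gap was 3.08 kb (quartiles 0.822 and 13.0 kb), against 7.89 kb (quartiles 2.03 and 26.6 kb) for narrower peaks, a ratio of 2.56. The quartile ranges overlapped, and the gaps of wide peaks ran from 17 bp to 273 kb. No test was made, because peaks of 1 list are not replicates of a condition and share loci. Joining peaks at most 500 bp apart lengthens the gaps that remain and also redefines the wide set. It then held 2062 peaks, since a peak can reach 600 bp by being joined to a close neighbour. The medians were 5.37 kb for these wide and 9.97 kb for narrower peaks, which is therefore no check independent of crowding. On each of the 25 chromosomes taken alone, the median gap (without joining) of the wide peaks was also the shorter.

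The nearest neighbour was within 500 bp for 186 wide peaks (17.1%), compared with 9.21% of narrower peaks. Within 5 kb, the shares were 58.8% and 41.1%, and within 50 kb they were 93.8% and 87.4%. Gaps of up to 200 bp, about the room of a single nucleosome with its linker, were seen at 56 wide peaks (5.14%) and at 3.08% of narrower peaks. Neighbours on both sides within 5 kb were found for 187 wide peaks (17.2%) and for 8.96% of narrower peaks. A close neighbour on 1 side only was more common than on both, with 41.7% of wide and 32.2% of narrower peaks. Neither side had a neighbour within 5 kb for 41.1% of wide and 58.8% of narrower peaks. The gap on the more distant side still had a median of 26.6 kb at wide peaks and 49.3 kb at narrower peaks. Read from the side of the gap, 7.35% of the 136 peaks with a gap of up to 100 bp were wide. With a gap over 100 and up to 200 bp it was 6.84% of 673 peaks. The share was highest, at 7.99%, for the 1627 peaks with a gap over 200 and up to 500 bp. It declined from there to 2.14% of the 3136 peaks with a gap over 50 kb.

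**Figure D2:**
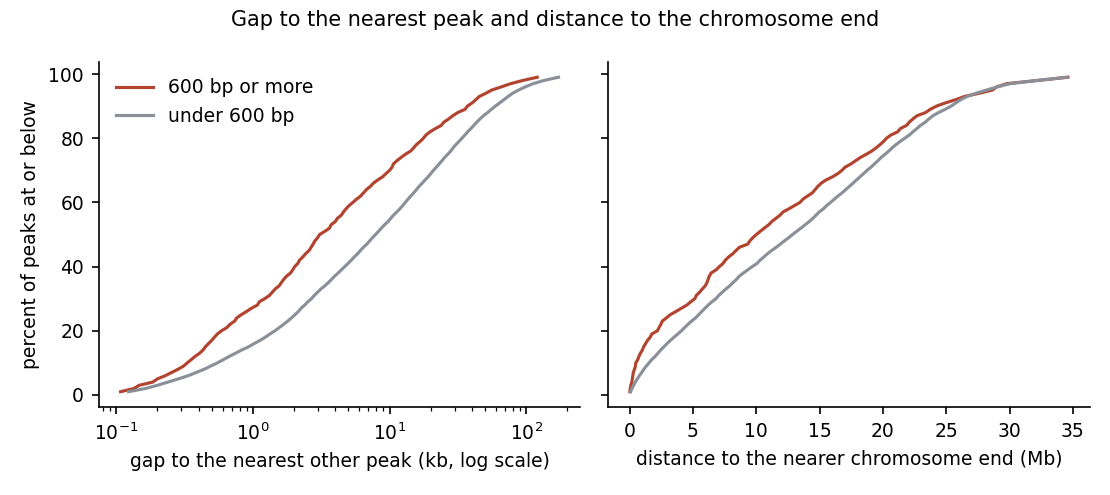
Cumulative percent of peaks (1st to 99th percentile) by edge-to-edge gap to the nearest other peak (left, kb, log scale) and by distance to the nearer chromosome end (right, Mb), for wide (red, n = 1089) and narrower peaks (grey, n = 24432) on assembled chromosomes. The red curve is to the left for gaps, with medians of 3.08 and 7.89 kb, and, up to the 93rd percentile, for end distances, with medians of 10.0 and 12.9 Mb.

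Wide peaks also had more peaks around them, counted by midpoint within 50 kb on either side. Their median was 4 other peaks (quartiles 2 and 7) against 3 (quartiles 1 and 5), and their mean was 5.33 ± 5.03 (SD, n = 1089 peaks) against 3.56 ± 3.39 (SD, n = 24432 peaks). The difference between the means was smaller than either SD. It was clearest in crowded places. At least 10 other peaks within 50 kb were found for 149 wide peaks (13.7%) and for 5.63% of narrower peaks, and at least 20 for 29 wide peaks (2.66%) and for 0.364% of narrower peaks. After joining peaks at most 500 bp apart, which redefines the wide set (2062 peaks), the shares with at least 10 were 7.42% and 3.64%. The 29 wide peaks with at least 20 were on chromosomes 7 (17 peaks) and 25 (12 peaks) alone. The excess was not limited to these chromosomes. On the other chromosomes, 91 of 937 wide peaks (9.71%) had at least 10 others nearby, against 5.30% of narrower peaks. Wide peaks had the higher mean on 24 of 25 chromosomes. The exception was chromosome 8, with 3.32 against 3.35. The median of the wide peaks was higher on 19 chromosomes and equal on 6. The authors had joined overlapping peaks of the stages, so width and crowding may not be independent in this list. How far such joining entered the gaps and counts of neighbours was not tested.

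The same relation can be read as the share of wide peaks at a given crowding. Among the 3163 peaks with no other peak within 50 kb, 2.15% were wide. The share was 3.20% with 1 neighbour, 3.14% with 2, 4.16% with 3 or 4, 5.67% with 5 to 9 and 7.43% with 10 to 14. It reached 17.3% with 15 to 19 neighbours (27 of 156 peaks) and 24.6% with 20 or more (29 of 118 peaks). These last 2 classes are few loci rather than many independent sites. Across all 25521 peaks, which share loci and libraries, the rank correlation between width and number of neighbours was weak (Spearman's rho = 0.13).

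**Figure D3:**
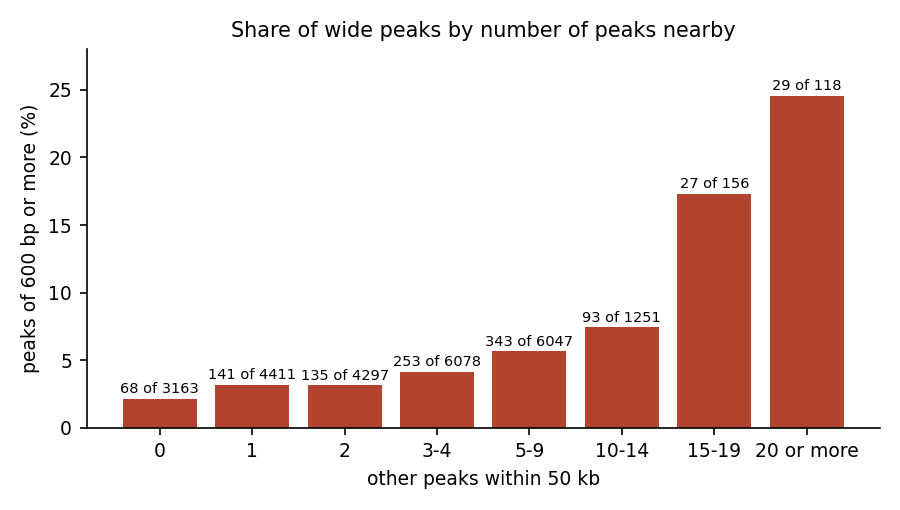
Percent of peaks that were 600 bp or wider (bars) by number of other peaks within 50 kb, on assembled chromosomes, with the number of wide peaks and of all peaks above each bar. The share rises, with a slight dip at 2 neighbours, from 2.15% of peaks without a neighbour to 24.6% of those with 20 or more.

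The 3 wide peaks with the most neighbours were all on chromosome 25. They lay at chr25:35784559-35785161 (603 bp, 33 other peaks within 50 kb), chr25:35797117-35797899 (783 bp, 32 peaks) and chr25:34644942-34646294 (1353 bp, 31 peaks). Of these 33, 32 and 31 neighbours, 3, 3 and 4 were wide themselves. By comparison, 4.27% of all peaks on assembled chromosomes were wide, and 24.6% of the peaks with 20 or more neighbours. At the other extreme, 68 wide peaks (6.24%) had no other peak within 50 kb, against 12.7% of narrower peaks. The most isolated wide region, chr18:10107836-10108460 (625 bp), had gaps of 345 and 273 kb on its sides. The next were chr6:16590472-16591132 (661 bp), 207 kb from its nearest neighbour, and chr4:11054283-11055007 (725 bp), 204 kb from its nearest neighbour. The isolated wide peaks had a median width of 672 bp, compared with 802 bp for the 29 wide peaks with 20 or more neighbours. The order between was uneven, as the 253 wide peaks with 3 or 4 neighbours also had a median of 672 bp.

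Among the wide peaks themselves, the surroundings also varied with width. The median gap was 3.81 kb for peaks of 600 to 699 bp, 2.51 kb for 700 to 799 bp, 2.97 kb for 800 to 999 bp and 1.97 kb for 1000 to 1499 bp. The mean number of peaks within 50 kb was 4.68, 5.56, 5.87 and 7.65 in the same classes. For the 8 peaks of 1500 bp or more, 6 of which had a neighbour within 500 bp, the median gap was 0.379 kb and the mean number of neighbours 12.1. The narrower classes continued this order on the other side of the bound, from a median gap of 13.3 kb and 3.03 neighbours for peaks of exactly 200 bp to 4.30 kb and 4.85 neighbours for peaks from 500 bp to the bound. The order had 2 exceptions. The gap was slightly longer at 800 to 999 bp than at 700 to 799 bp, and the mean number of neighbours at 600 to 699 bp was below that of the class before it. Within the 1089 wide peaks, the rank correlation of width with the number of neighbours was 0.14 and that with the gap was -0.10, so width described little of the variation among single regions.

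**Figure D4:**
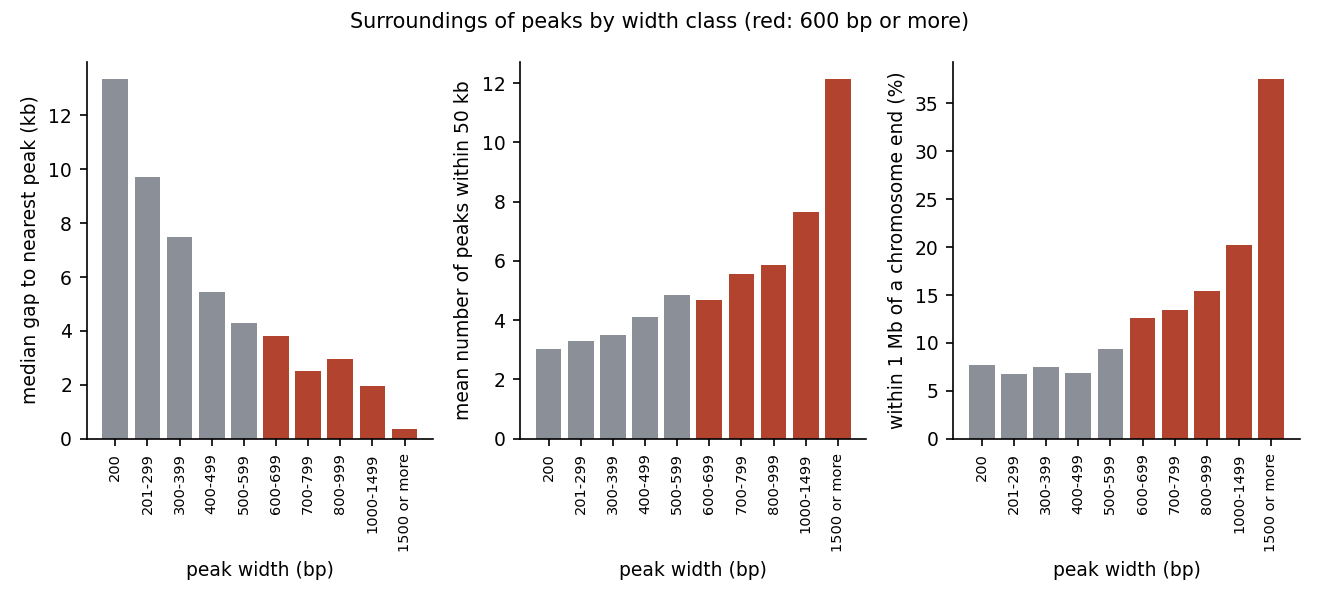
Median edge-to-edge gap to the nearest peak (left, kb), mean number of other peaks within 50 kb (middle) and percent of peaks within 1 Mb of a chromosome end (right) by width class on assembled chromosomes, with grey bars under 600 bp and red bars from 600 bp. Gaps shorten from 13.3 to 0.379 kb from the narrowest to the widest class, which holds only 8 peaks.

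Wide peaks had another wide peak nearby more often than narrower peaks had a wide one, though most had none. Another wide peak lay within 50 kb of 314 wide peaks (28.8%), whereas 14.5% of narrower peaks had a wide peak at that distance. Within 5 kb, the shares were 10.6% and 3.54%. The shares at both distances were not matched for crowding, and wide peaks had more peaks of any width around them. The nearest peak of any width was wide for 9.55% of the wide peaks and for 4.39% of the narrower peaks. Where the nearest peak was within 5 kb, these shares were 11.6% and 5.67%, and where it was farther away they were 6.68% and 3.49%. The typical neighbour of a wide peak was nonetheless of ordinary width. The nearest peak had a median width of 330 bp at wide peaks and 317 bp at narrower peaks.

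Linking wide peaks whose midpoints were at most 50 kb apart gave 895 loci. Of these, 775 held a single wide peak, 92 held 2, 21 held 3 or 4, and 7 held 5 or more. The 7 large groups contained 62 wide peaks. The largest, chr7:6204751-6334783, had 18 wide peaks of 605 to 2052 bp among 32 peaks in 130 kb, and peaks covered 17.1% of its length. The next group was also on chromosome 7, near its right end. At chr7:73589795-73635210, 11 of 19 peaks were wide (644 to 1597 bp), and peaks covered 30.2% of 45.4 kb.

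Among the groups of 5 or more wide peaks, the densest arrangement was found on chromosome 25. At chr25:34540040-34562854, 10 of 14 peaks were wide (611 to 1358 bp), with midpoints of successive wide peaks 1.08 to 4.01 kb apart, and peaks covered 40.6% of 22.8 kb. A further group on this chromosome, chr25:34619255-34651059, had 5 wide peaks among 18. On chromosome 4, 8 of 16 peaks at chr4:28738741-28764576 were wide (603 to 1283 bp), covering with the others 35.6% of 25.8 kb. The smaller groups were chr12:268651-292730, with 5 wide peaks among 8, and chr2:15018769-15140360, with 5 among 14. In the groups of 8 to 11 wide peaks, the median spacing of successive wide peaks was similar. It was 2.37 kb on chromosome 4, 2.33 kb on chromosome 25 and 2.47 kb on chromosome 7 near the end. Single spacings differed more, with ranges of 0.802 to 13.7 kb, 1.08 to 4.01 kb and 1.18 to 17.9 kb in the same order. In the group of 18 the median was 4.90 kb, with a range of 0.978 to 45.1 kb.

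In fixed windows of 100 kb, 902 of the 9312 windows with a peak held a wide peak, and 783 of these held exactly 1. The 5 windows with the most were on chromosome 25 from 34500001 (10 wide of 17 peaks), on chromosome 7 from 6200001 (9 of 19), from 6300001 (9 of 13) and from 73600001 (7 of 19), and on chromosome 4 from 28700001 (8 of 19). Together they held 43 wide peaks, 3.95% of those on chromosomes, and 49.4% of their 87 peaks were wide. With these windows left out, a choice made after seeing the data, the median gap of wide peaks was 3.59 kb against 7.93 kb, and the share with at least 10 neighbours fell from 13.7% to 10.1%, against 5.46% of narrower peaks.

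Wide peaks were found on every assembled chromosome. Their number ranged from 21 on chromosome 22 to 113 on chromosome 7, and their share of all peaks from 2.71% on chromosome 11 to 6.96% on chromosome 7, with a median of 4.15% over the 25 chromosomes. Chromosomes 25 (5.42%), 12 (5.34%) and 4 (5.09%) followed chromosome 7, and chromosomes 22 (2.96%) and 17 (3.15%) were next to the lowest. The high shares rested in part on the groups described above. Without the windows named, the share was 5.59% on chromosome 7 (88 of 1573 peaks), 4.13% on chromosome 25 and 4.22% on chromosome 4. On chromosome 25, 19 of 39 wide peaks lay in the 3 windows of this chromosome with the most, from 34500001, 34600001 and 35700001, and the median number of neighbours was 14 for wide and 3 for narrower peaks. On chromosome 7, 29 of 113 wide peaks belonged to its large groups.

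**Figure D5:**
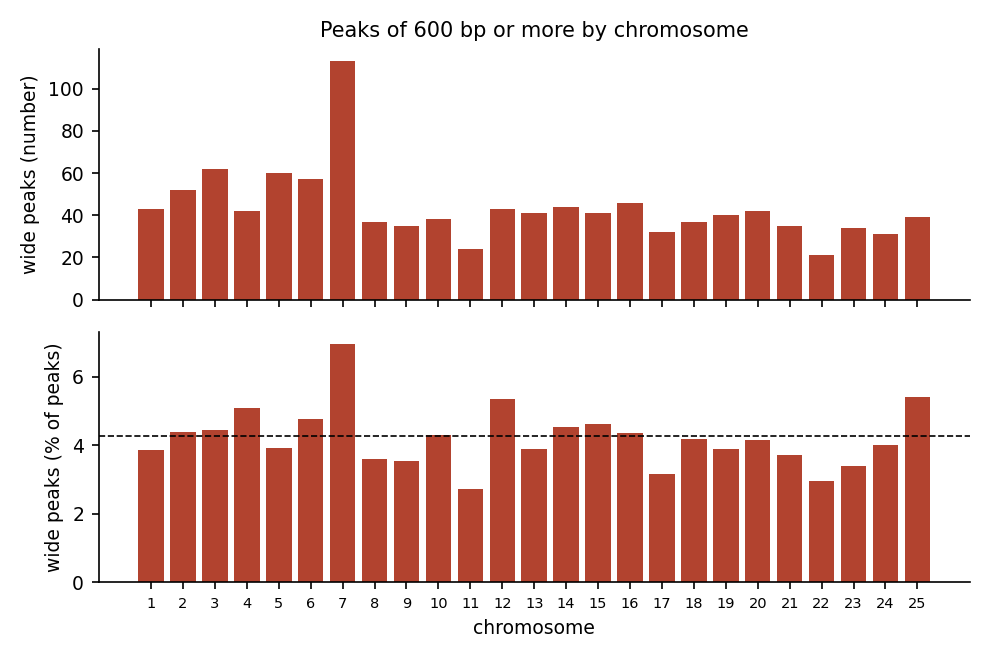
Number of peaks of 600 bp or more (top) and their percent of all peaks (bottom) on each of the 25 assembled chromosomes, with a dashed line at the share over all of them, 4.27%. Chromosome 7 stands highest on both scales with 113 wide peaks and 6.96%, and chromosome 11 has the lowest share at 2.71%.

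Widths of the wide peaks by chromosome are given as a description only, since width chose these peaks. The median ran from 652 bp on chromosome 13 to 720.5 bp on chromosome 4, and the median of these medians was 693.5 bp. Chromosome 3, one of the chromosomes with the most peaks, had 62 wide peaks (4.44%), close to the share of the whole map. On chromosome 4 from 28 Mb on, which includes its peak-poor long arm, 15 of 247 peaks were wide (6.07%), compared with 27 of 578 (4.67%) before that position. From 30 Mb on, beyond the group of 8 wide peaks, 7 of 197 peaks (3.55%) were wide.

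Wide peaks lay nearer to the chromosome ends, taken as the outermost peaks of each chromosome since chromosome lengths were not used. The median distance to the nearer end was 10.0 Mb (quartiles 3.21 and 18.7 Mb) for wide peaks and 12.9 Mb (quartiles 5.46 and 20.2 Mb) for narrower peaks. It was the shorter for wide peaks on 20 of 25 chromosomes. The last 1 Mb before an end held 152 wide peaks (14.0%) and 7.21% of narrower peaks, a ratio of 1.94, and the share was higher for wide peaks on 23 of 25 chromosomes. The exceptions were chromosomes 16, with 6.52% against 8.09%, and 23, with 5.88% against 6.20%. Single chromosomes had only 2 to 13 wide peaks that near to an end. Small differences on 1 chromosome are therefore not read, such as 12.8% against 12.3% on chromosome 25. Within 5 Mb the shares were closer, at 29.8% and 23.4%. The rank correlation of width with end distance was weak, at -0.04 across all 25521 peaks and -0.07 within the wide peaks. By width, the share within 1 Mb of an end was 12.6% at 600 to 699 bp, 13.5% at 700 to 799 bp, 15.4% at 800 to 999 bp and 20.3% at 1000 to 1499 bp, and 3 of the 8 widest peaks of 1500 bp or more were that near. The classes under 600 bp ranged from 6.75% to 9.37%.

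The share of wide peaks among all peaks was 7.95% in the outermost 1 Mb and 4.99% in the next. It was 3.85% from 2 to 5 Mb, 4.89% from 5 to 10 Mb and 3.54% beyond 20 Mb, so that the decline was not even. Peaks are denser near the ends, and the values were therefore also taken within classes of crowding. Among peaks with 5 to 9 neighbours, 8.47% of the 744 near an end and 5.28% of the 5303 elsewhere were wide. Among peaks with 2 to 4 neighbours, the shares were 6.36% and 3.55%, and among those with 10 or more they were 15.4% and 8.72%. With at most 1 neighbour they were 3.15% (7 of 222 peaks) and 2.75%. The share was thus higher near ends among peaks with at least 2 neighbours. With at most 1 neighbour the number of wide peaks near ends was too small to read a direction. The 37 wide peaks near ends with 10 or more neighbours include the 11 of the group at chr7:73589795-73635210. Whether crowding accounts for the higher share near ends was not tested.

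The ends differed among themselves. Of the 50 ends, 5 had no wide peak in their last 1 Mb, 20 had 1 or 2, 19 had 3 to 5 and 6 had 6 or more. The most were found at the right end of chromosome 7, with 12 wide of 63 peaks, which include all 11 wide peaks of its second group. The left ends of chromosomes 4, 12 and 22 followed with 8, 7 and 7, and the right and left ends of chromosome 21 with 7 and 6. On chromosome 21, 13 of 35 wide peaks (37.1%) were within 1 Mb of an end, compared with 9.23% of its narrower peaks. On the chromosomes, 2 wide peaks were themselves an outermost peak, so that no order of distance can be read between them. The narrower was the last peak of chromosome 10, at chr10:45534711-45535545 (835 bp). Its nearest neighbour, 35.2 kb away, was also wide, at 812 bp.

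Wide peaks were more often part of a run of closely spaced peaks, here peaks joined by gaps of at most 2 kb. Most peaks of both kinds stood alone, 60.6% of the wide and 75.3% of the narrower peaks. Runs of 4 or more peaks held 91 wide peaks (8.36%) and 2.80% of narrower peaks. Of all peaks in such runs 11.8% were wide, against 7.42% in runs of 3, 5.49% in pairs and 3.47% of peaks that stood alone.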

How the data were processed

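ATAC-seq was performed by the authors on cells of deyolked zebrafish embryos, and tagmented naked genomic DNA served as control. The methods of the paper and the labels name cutadapt 1.9.1 for trimming and Bowtie2 2.2.4 for alignment, with Zv10 as the genome. Filters took out duplicate, mitochondrial and poorly mapped reads, and positions were corrected for the cut of Tn5. Peaks were called on short fragments with MACS2 2.1.1 on pooled replicates of each stage, kept when found in every replicate, and the wild-type stages were merged. The deposited list gives positions in base pairs, without signal or library, so depth is unknown. Reads lost in repeated sequence and joining of overlapping peaks can both change a width.

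Widths, gaps, neighbour counts and end distances were computed in Python 3.11.15 (pandas 2.3.3, numpy 2.4.6). Intervals came from scipy 1.17.1, and figures from matplotlib 3.10.9. Starts were read as counted from 0 and are printed counted from 1. Functions were checked on simulated peaks by direct pairwise computation. Regions named are the 10 widest, the 5 windows of 100 kb with most wide peaks, the 3 most crowded, the 3 most isolated and the one nearest an end. Groups, ends and runs were added after seeing values. The members and the lists were chosen with earlier results of these data known. No test was made, since the list carries no sample values and width chose the members. Alternatives were bounds of 500 and 800 bp, merging across gaps of up to 100 or 500 bp, other distances, leaving out chromosome 4 or peaks of 200 bp, starts counted from 1 and leaving out the 5 windows.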

Additional observations from a re-analysis of the deposited data

How the results depend on the processing

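The list has no values by replicate. No paired analysis was possible because the positions carry no replicate numbers, and leaving out a replicate was likewise not possible. Of 55 alternative values that compare wide with narrower peaks, 55 kept the direction. They include values after merging, where a peak can count as wide because a neighbour was close. They also include settings that share most wide peaks with the main set, such as leaving out peaks of 200 bp. The count is therefore no measure of robustness. Between the classes of 50 bp on either side of the bound, end distance and mean number of neighbours went the other way. Of all 79 alternative values, 47 stayed within the 95% binomial interval of the value reported, or within 1.5 times for counts and covered length. The interval takes peaks as independent, although they share loci. It served as a fixed yardstick only and measures no spread. The other 32 alternative values lay outside these limits. They include values without the 5 windows, where the bound and the distances were unchanged. With a bound of 500 bp there were 2393 wide peaks (9.21% of peaks, 17.1% of covered length). A neighbour within 5 kb was found for 55.3% (narrower peaks 40.5%), and 11.5% were within 1 Mb of an end (7.09%). Another wide peak lay within 50 kb of 41.3% (26.2%). With a bound of 800 bp there were 275 (1.06%, 3.03% of covered length). Their median gap was 2.62 kb (narrower peaks 7.69 kb), and 63.6% were within 5 kb of a neighbour (41.7%). They had a median of 5 neighbours (3), and 20.8% had 10 or more (5.82%). The median end distance was 8.39 Mb (12.8 Mb), and 17.4% were within 1 Mb of an end (7.39%). Near another wide peak were 22.3% (4.76%). Merging across gaps of up to 500 bp gave 2115 wide peaks (8.57%, 21.2% of covered length). Their median gap was 5.37 kb (narrower peaks 9.97 kb), and 48.7% were within 5 kb of a neighbour (35.2%). They had a median of 3 neighbours (2), and 7.42% had 10 or more (3.64%). The median end distance was 11.3 Mb (12.9 Mb), and 11.9% were within 1 Mb of an end (6.84%). Near another wide peak were 33.6% (23.1%). The median number of neighbours was 2 within 20 kb (narrower peaks 1) and 7 within 100 kb (5). At these distances, 4.59% (0.733%) and 32.4% (18.7%) had 10 or more. The 5 windows with most wide peaks were chosen after seeing the data. Without them, 10.1% had 10 or more (narrower peaks 5.46%) and 25.9% were near another wide peak (14.4%). Counting starts from 1 gave 1133 wide peaks. Sequence and gene position were not run, as no genome of this build was used here. The unknown depth limits which regions were called and how wide.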

Other observations

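Wide peaks also occurred on unplaced scaffolds, which were left out of the comparisons of position because a short scaffold limits how far away a neighbour or an end can lie. Of 454 peaks on 248 scaffolds, 34 were 600 bp or wider (7.49%), compared with 4.27% on the assembled chromosomes. They measured 604 to 1001 bp, with the same median of 692 bp as the whole set. They were spread over 33 scaffolds, of which 32 held a single wide peak and 1 held 2, and 9 were the only peak of their scaffold.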
